A study of Mus musculus with 9 samples.

Results

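The genes described here are 8 regulators and markers of muscle stem cells and of the myogenic programme: Pax7, Myf5, Myf6, Myod1, Myog, Cdh15, Megf10 and Mdfi. They were taken by symbol from 15593 gene symbols in the deposited table of mouse gastrocnemius muscle. The choice was made with earlier results of these data known, and all 8 are described whatever their values. Of the 8 genes, 7 were among the 15372 symbols that could be tested, and the remaining member, Mdfi, was listed at 0 in all wildtype libraries and is described by its values.

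Gastrocnemius, the large calf muscle, was sampled in 3 groups of 3 libraries each: wildtype animals on vehicle, mdx animals on vehicle, and mdx animals that received GTx-026 subcutaneously at a dose of 10 mg/kg, with polyadenylated RNA read on an Ion Torrent Proton. By its title the study concerned androgen receptor agonists in Duchenne muscular dystrophy, and mdx mice carry a mutation of the dystrophin gene Dmd. The strain is labelled C57BL/6 for wildtype and mdx alike, and the labels used here give neither age, sex nor length of treatment. No label ties a library to an animal, so a p-value here measures only library-to-library spread, which may be in part technical, and no wildtype group was given GTx-026.

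Satellite cells are the resident stem cells of skeletal muscle, and they lie between a muscle fibre and its basal lamina. Most are quiescent and express the transcription factor Pax7. After injury they divide, switch on Myod1, then Myog, and fuse into new fibres, a process that recurs throughout life in muscle that lacks dystrophin. Myf5, Myod1, Myog and Myf6 form the family of myogenic regulatory factors, which bind the E-box sequence CANNTG together with E proteins.

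The promoters of Myog and Mdfi are shown because Myog is the family member that marks the start of differentiation, and Mdfi, an inhibitor of the family, was the member listed only in the mdx groups. Each run holds 250 bases before and 50 bases after a start site, from RefSeq on build GRCm38.p6, written 5′ to 3′ on the strand of the gene, with CANNTG in capitals.

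Myog, chr1:134289754-134290053, plus strand: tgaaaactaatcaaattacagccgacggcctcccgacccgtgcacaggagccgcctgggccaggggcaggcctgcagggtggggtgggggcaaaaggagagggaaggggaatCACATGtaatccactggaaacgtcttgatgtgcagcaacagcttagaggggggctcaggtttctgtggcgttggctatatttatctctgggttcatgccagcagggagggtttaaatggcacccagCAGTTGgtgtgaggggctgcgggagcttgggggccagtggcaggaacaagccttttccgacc

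Mdfi, chr17:47834642-47834941, minus strand: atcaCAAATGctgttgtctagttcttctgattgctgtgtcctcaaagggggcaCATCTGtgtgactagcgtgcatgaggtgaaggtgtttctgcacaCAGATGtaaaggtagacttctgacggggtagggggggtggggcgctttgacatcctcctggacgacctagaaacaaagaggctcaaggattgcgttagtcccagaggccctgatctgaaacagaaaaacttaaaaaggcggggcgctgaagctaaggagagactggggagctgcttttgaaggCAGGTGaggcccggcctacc

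Mdfi, chr17:47833242-47833541, minus strand: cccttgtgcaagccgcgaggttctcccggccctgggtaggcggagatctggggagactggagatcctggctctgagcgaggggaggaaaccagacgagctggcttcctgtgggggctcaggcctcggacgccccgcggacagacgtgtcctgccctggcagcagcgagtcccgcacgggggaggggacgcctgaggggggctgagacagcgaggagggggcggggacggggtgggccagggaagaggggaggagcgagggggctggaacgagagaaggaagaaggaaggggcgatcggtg

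The Myog window held 2 matches to CANNTG, with their first bases at positions -138 and -12 counted from the start site. The upstream Mdfi window held 4 matches, at -246, -197, -153 and 31, and the other Mdfi window held 0. CANNTG reads the same on both strands, so a search of 1 strand covers both. Among all 32851 RefSeq promoters of this length 72.31% held at least 1 match, 39.64% held 2 or more and 6.487% held 4 or more. These matches describe letters in a window and show no binding.

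On the same GRCm38 coordinates, in the GENCODE M21 annotation, Myf5 (chromosome 10, 107482908 to 107486134) and Myf6 (chromosome 10, 107492853 to 107494737) are neighbours on the minus strand with 6718 bases between them. The other members lie apart from each other. Pax7 is on chromosome 4, Myod1 on chromosome 7, Myog on chromosome 1, Cdh15 on chromosome 8, Megf10 on chromosome 18 and Mdfi on chromosome 17. None of the 8 genes shares a stretch of 50 bases of its transcripts with another annotated gene. Cdh15 lies wholly inside the span of another protein-coding gene on the same strand, Gm20388, and the sources used here do not say how reads in such an overlap were assigned.

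Levels are given as CPM, a gene's share of its rescaled library in parts per M (mega), and 1 CPM stood for 27.5 to 36.4 estimated reads. An estimated 25.1 M to 38.0 M reads were listed for a library, where a read listed under several records would count more than once. The mdx vehicle library 1 stood apart. Across genes, which are not independent replicates, its median correlation with the libraries of its own group was 0.945, against 0.959 to 0.983 in the other 8 libraries. Dmd, the gene mutated in mdx, was at 41.4, 60.0 and 50.9 CPM in wildtype libraries 1 to 3, at 11.4, 21.7 and 21.7 CPM in the mdx vehicle libraries and at 17.5, 14.2 and 18.0 CPM in the mdx GTx-026 libraries, so both mdx groups lay below all wildtype libraries. All 9 muscle fibre markers were tested, and their summed level was 165622 to 210854 CPM in wildtype, 112936 to 159647 CPM in mdx vehicle and 128537 to 206950 CPM in mdx GTx-026 libraries.

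Pax7, the transcription factor that defines satellite cells, was read at low levels in all 9 libraries. It stood at 3.19, 3.01 and 2.62 CPM in wildtype vehicle libraries 1 to 3. The mdx vehicle libraries had 1.96, 4.25 and 4.73 CPM, and the mdx GTx-026 libraries 3.84, 3.26 and 4.58 CPM. The GTx-026 libraries all lay above the wildtype libraries, while the mdx vehicle group held both the lowest and the highest value of all 9.

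Cdh15 encodes M-cadherin, which joins satellite cells to the fibre. Its level was 22.0, 19.9 and 18.7 CPM in wildtype libraries 1 to 3. In the mdx vehicle libraries it was 11.9, 19.3 and 20.9 CPM, and in the GTx-026 libraries 21.7, 15.3 and 14.8 CPM. The 3 groups overlapped, and the lowest value was that of the mdx vehicle library 1.

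Megf10, a membrane receptor of satellite cells whose loss causes a myopathy in humans, was the least abundant of the 7 tested members per length when records were summed per symbol. It was at 2.98, 1.64 and 1.16 CPM in wildtype libraries 1 to 3. The mdx vehicle libraries had 1.47, 1.89 and 2.82 CPM and the GTx-026 libraries 2.04, 1.74 and 2.03 CPM. The wildtype group alone spanned the values of all other libraries.

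Myf5, the family member expressed earliest in the embryo and kept in many quiescent satellite cells, varied little. It was at 2.56, 3.38 and 3.42 CPM in wildtype libraries 1 to 3. It was at 2.24, 3.33 and 3.50 CPM in the mdx vehicle libraries and at 2.95, 2.79 and 2.83 CPM in the GTx-026 libraries. The GTx-026 values fell inside the wildtype range.

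Myod1, which commits activated satellite cells to the muscle lineage, was at 12.8, 18.8 and 23.6 CPM in wildtype libraries 1 to 3. The mdx vehicle libraries had 20.7, 24.3 and 37.8 CPM, and the GTx-026 libraries 43.3, 36.3 and 35.6 CPM. Every GTx-026 library lay above every wildtype library. The mdx vehicle group overlapped both of the others.

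Myog encodes myogenin, which drives the differentiation of myoblasts. It was at 18.2, 7.69 and 8.65 CPM in wildtype libraries 1 to 3. It was at 8.94, 15.9 and 38.4 CPM in the mdx vehicle libraries and at 17.9, 28.1 and 17.4 CPM in the GTx-026 libraries. The mdx vehicle library 3 was the highest of all 9 and the wildtype library 2 the lowest, and all groups overlapped.

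Myf6, also called MRF4, is the family member that predominates in mature fibres. It was at 53.6, 45.3 and 53.6 CPM in wildtype libraries 1 to 3. The mdx vehicle libraries had 50.3, 107 and 73.9 CPM, and the GTx-026 libraries 127, 91.7 and 85.7 CPM. The 3 wildtype values were close together, the mdx vehicle library 1 lay within their range, and the GTx-026 libraries all lay above them.

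Mdfi, also called I-mfa, binds myogenic regulatory factors and masks their nuclear localisation signal. All 5 of its sequence records were listed at 0 in each of the 3 wildtype libraries. The mdx vehicle libraries had 2.27, 3.45 and 7.56 CPM and the GTx-026 libraries 8.33, 5.60 and 3.51 CPM, which rest on an estimated 74 to 282 reads per library summed over the records. Each of the 5 records was above 0 in all 6 mdx libraries, and the mdx groups overlapped. The table lists no signal between 0 and 10, and no record is at 0 in only some libraries of a group, so a 0 may stand for a low value. No fold against wildtype is therefore given. In the whole table, 431 of 46442 records were listed at 0 in at least 1 group, 355 of them in wildtype, 101 in mdx vehicle and 133 in mdx GTx-026.

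**Figure D1:**
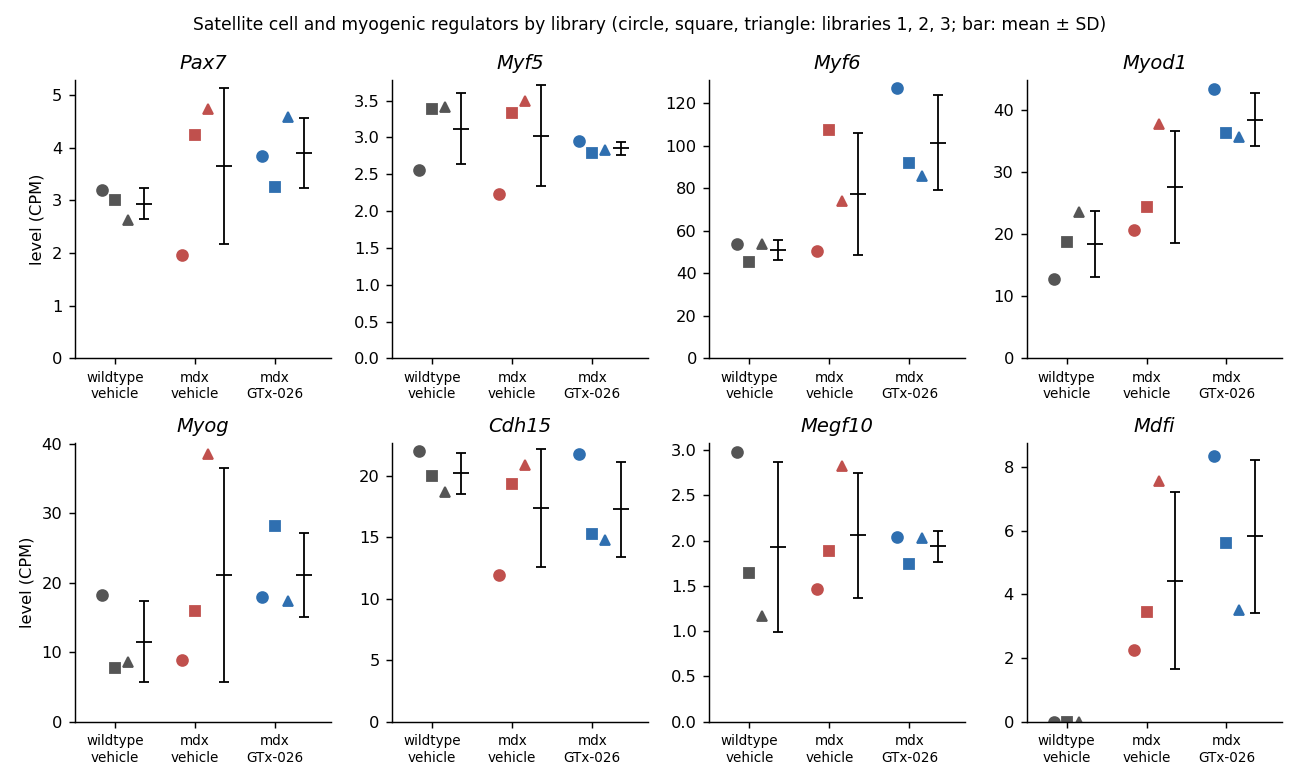
Level of each member in CPM (vertical axes, which start at 0 and differ between panels) in the 3 libraries of each group. Circles, squares and triangles are libraries 1, 2 and 3, and bars give the mean and SD (n = 3), which are left out where all libraries are listed at 0. The GTx-026 libraries of Myf6 (85.7 to 127 CPM) and Myod1 (35.6 to 43.3 CPM) lie above all wildtype libraries.

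Per kilobase of the longest annotated transcript, the members kept much the same order in the 3 groups. Records were summed per symbol, 5 for Mdfi, 3 for Pax7, 2 each for Myf5 and Myf6 and 1 for each other member. A read listed under several records would raise these levels, so the order holds for summed records only. Myf6 was the most abundant, at 40.3 ± 3.82 CPM per kb in wildtype, 61.1 ± 22.6 in mdx vehicle and 80.3 ± 17.6 in mdx GTx-026 (SD, n = 3). Myod1 followed, at 9.89 ± 2.88, 14.8 ± 4.84 and 20.6 ± 2.29 CPM per kb. Myog stood at 7.70 ± 3.89, 14.1 ± 10.3 and 14.1 ± 4.03 CPM per kb and Cdh15 at 6.21 ± 0.517, 5.34 ± 1.47 and 5.31 ± 1.19 CPM per kb. The ranges of Myog and Myod1 overlapped in wildtype and mdx vehicle libraries but not in the GTx-026 libraries, and those of Myog and Cdh15 overlapped in wildtype and mdx vehicle libraries. Myf5 was at 1.50 ± 0.232, 1.45 ± 0.330 and 1.37 ± 0.0421 CPM per kb, Pax7 at 0.502 ± 0.0496, 0.623 ± 0.253 and 0.665 ± 0.113, and Megf10 at 0.256 ± 0.125, 0.274 ± 0.0921 and 0.258 ± 0.0225. Mdfi stood between Cdh15 and Myf5 in the mdx groups, at 2.59 ± 1.62 in mdx vehicle and 3.40 ± 1.41 in mdx GTx-026. In whole muscle, fewer satellite cells and less RNA in each of them cannot be told apart.

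With its 2 records summed, Myf6 made up most of the RNA of the myogenic regulatory factors. Myf5 also had 2 records, and Myod1 and Myog had 1 each. A read listed under both records would enter these shares more than once. As a share of the per-kilobase level of the family Myf6 held 67.8% ± 0.193 in wildtype, 66.9% ± 11.1 in mdx vehicle and 68.6% ± 4.33 in mdx GTx-026 libraries (SD, n = 3). Myod1 held 16.8% ± 5.05, 16.7% ± 4.20 and 17.8% ± 1.14, and Myog 12.8% ± 5.72, 14.7% ± 8.21 and 12.4% ± 4.05. The share of Myf5 was 1.96% to 3.08% in wildtype, 1.45% to 1.85% in mdx vehicle and 1.03% to 1.36% in mdx GTx-026 libraries. These 3 ranges did not overlap, although its level in CPM did. A share also depends on the other factors. The mean level of Myf5 was 1.50, 1.45 and 1.37 CPM per kb in wildtype, mdx vehicle and mdx GTx-026. The means of Myf6, Myod1 and Myog were higher in both mdx groups than in wildtype. The shares were not tested. Within mdx vehicle, library 3 had the largest Myog share (24.2%) and the smallest Myf6 share (55.1%), and library 2 the largest Myf6 share (77.0%).

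**Figure D2:**
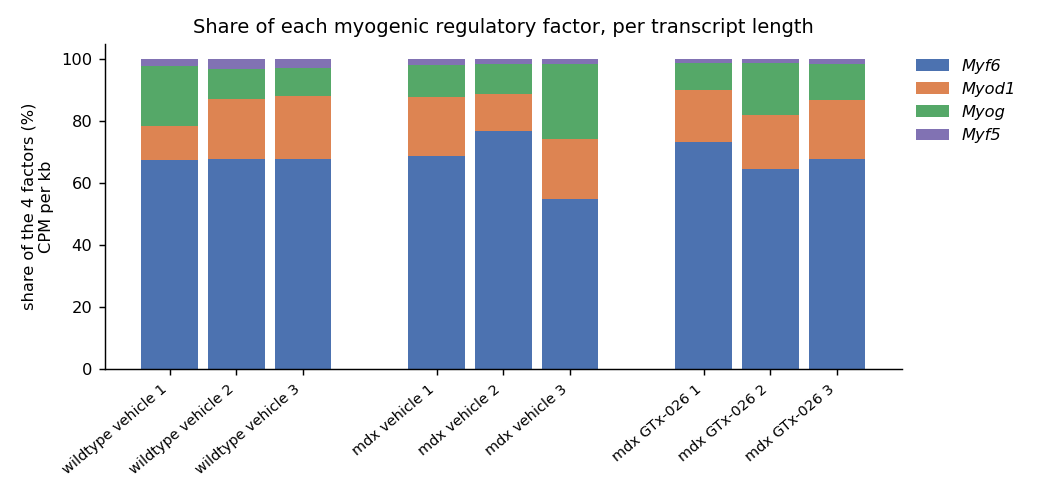
Share of each myogenic regulatory factor in their summed level per kilobase, in percent, for each of the 9 libraries. Myf6, with its 2 records summed, takes 55.1% to 77.0% of every library.

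Differences between groups were tested with limma on log2(CPM + 1) over all tested genes, with Benjamini-Hochberg adjustment and a threshold of 0.05 for a call. Every fold change below is on that scale, where changes of low genes come out too small.

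The comparison of mdx vehicle with wildtype vehicle asks how the dystrophic muscle differs. None of the 7 tested members passed the threshold (limma), where 0.338% of all tested genes were called (52 of 15372), and 0 had an unadjusted p under 0.05, as 12.7% of all genes did. None of the 7 tested members had all mdx vehicle libraries above all wildtype libraries, as 7.97% of all genes did. Of the 7 members 5 were on the higher side, with a median log2 fold change of 0.18 against 0.01 over all genes. Myog had the largest estimate, at 0.68 on the log2 scale (95% interval -0.39 to 1.75, limma adjusted p = 0.574). Myod1 stood at 0.55 (-0.02 to 1.13, adjusted p = 0.409) and Myf6 at 0.53 (-0.04 to 1.10, adjusted p = 0.427). The remaining estimates lay nearer 0, with Pax7 at 0.18 (-0.36 to 0.73), Megf10 at 0.09 (-0.44 to 0.61), Myf5 at -0.04 (-0.42 to 0.33) and Cdh15 at -0.24 (-0.74 to 0.26). Their intervals overlapped those of Myog, Myod1 and Myf6, and no contrast between members was tested.

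These estimates moved when single libraries were left out. Without the mdx vehicle library 1 the log2 fold changes of Myog, Myf6 and Pax7 were 1.14, 0.80 and 0.48 and that of Cdh15 was -0.01, and without the mdx vehicle library 3 those of Myog, Myod1 and Pax7 were 0.14, 0.31 and 0.00. Cdh15 was at -0.38 without the mdx vehicle library 3. Without the mdx vehicle library 2 the estimate of Myf6 was 0.26, and without the wildtype library 1 those of Myod1 and Myog were 0.33 and 1.04.

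The comparison of mdx GTx-026 with mdx vehicle asks what the drug changed in dystrophic muscle. Again 0 of the 7 members passed the threshold (limma) where 0.013% of all tested genes were called (2 of 15372), and 0 had an unadjusted p under 0.05, as 3.17% of all genes did. No member, Mdfi included, had all treated libraries above all mdx vehicle libraries, as 3.67% of all genes did. Myod1 had an estimate of 0.50 (95% interval -0.07 to 1.07) and Myf6 of 0.43 (-0.14 to 1.01), both with a limma adjusted p of 0.9996. Leaving out single libraries, the estimate of Myf6 ran from 0.16 without the mdx vehicle library 1 to 0.70 without the mdx vehicle library 2, with 0.26 without the GTx-026 library 1. That of Myod1 ran from 0.33 without the mdx vehicle library 1 to 0.74 without the mdx vehicle library 3. The intervals of Myog (-0.86 to 1.27), Pax7 (-0.42 to 0.67), Cdh15 (-0.49 to 0.51), Megf10 (-0.56 to 0.49) and Myf5 (-0.42 to 0.33) all spanned 0. The direction of Myog depended on the mdx vehicle library 1, since its estimate of 0.20 became -0.25 without it, and that of Pax7 became -0.17. For Mdfi, a fit of the mdx groups alone gave a log2 fold change of 0.39 (limma adjusted p = 0.9997), a setting chosen after seeing the data.

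The comparison of mdx GTx-026 with wildtype vehicle sets treated dystrophic muscle beside normal muscle, and it shares libraries with both comparisons above. Here Myod1 and Myf6 were 2.08 and 1.95 times the wildtype level on the tested scale but missed the adjusted threshold. The log2 fold change of Myod1 was 1.06 (SE 0.26, 95% interval 0.48 to 1.63, limma adjusted p = 0.0889) and that of Myf6 was 0.96 (SE 0.26, 0.39 to 1.54, adjusted p = 0.121). Of the 7 members 0 were called (limma), where 1.48% of all tested genes were called (227 of 15372), and these 2 had an unadjusted p under 0.05, as 12.5% of all genes did. Myod1, Myf6 and Pax7 had all treated libraries above all wildtype libraries, which is 3 of the 7 tested members, where 11.5% of all genes did.

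The remaining members had intervals that spanned 0. Myog was at 0.88 (95% interval -0.18 to 1.95) and Pax7 at 0.31 (-0.24 to 0.85) on the log2 scale. Megf10 was at 0.05 (-0.47 to 0.58), Myf5 at -0.09 (-0.46 to 0.29) and Cdh15 at -0.23 (-0.73 to 0.27).

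The calls of Myod1 and Myf6 against wildtype turned on the processing. Both passed with the scaling kept as deposited (limma adjusted p = 0.0305 for Myod1 and 0.0268 for Myf6), with the listed totals (0.0299 and 0.0260) and with a fit of the compared groups alone (0.0450 and 0.0301). Myf6 alone passed without the mdx vehicle library 1 (0.0375), a library outside this comparison that adds to the shared spread. Over 18 alternatives the adjusted p ran from 0.0299 to 0.272 for Myod1 and from 0.0260 to 0.357 for Myf6, and the log2 fold change from 0.83 to 1.25 and from 0.79 to 1.08. In the authors' deposited table the authors' p-values of treated against wildtype were 0.00547 and 0.00201 for the 2 records of Myf6 and 0.0115 for Myod1. The headers state neither the test nor whether these were adjusted. Among the tested members, record 1 of Myf5 had an authors' p of 0.0188 for mdx vehicle against wildtype and 0.0330 for GTx-026 against mdx vehicle. Its record 2 had 0.732 and 0.671, with ratios of group means on the other side of 1.

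**Figure D3:**
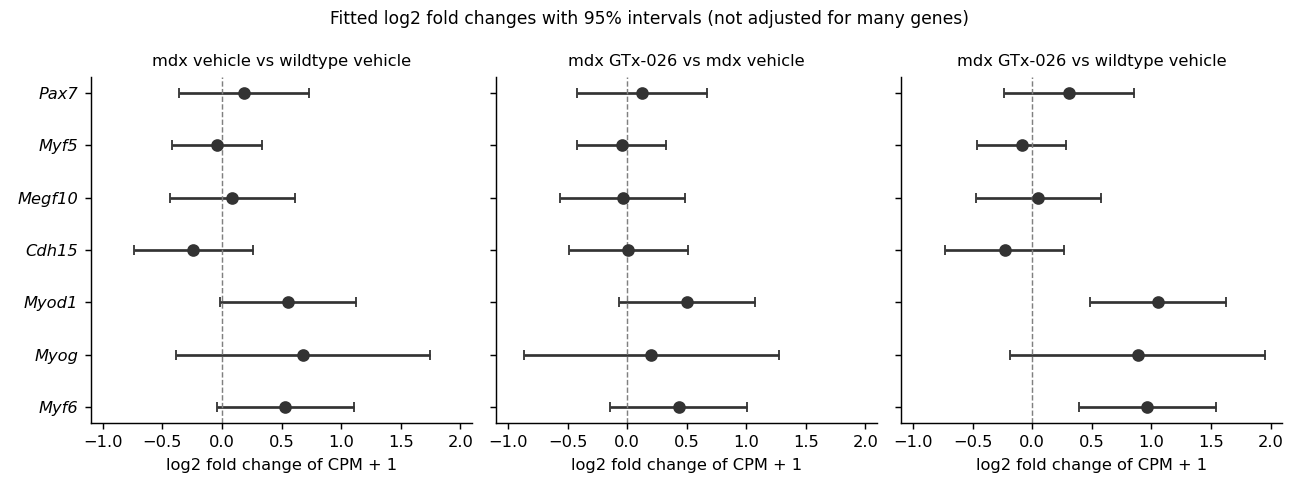
Log2 fold change of each tested member in the 3 comparisons (horizontal axis, log2(CPM + 1) scale), with bars for the 95% interval from limma. The intervals of Myod1 (0.48 to 1.63) and Myf6 (0.39 to 1.54) for mdx GTx-026 against wildtype vehicle are the ones that exclude 0.

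**Figure D4:**
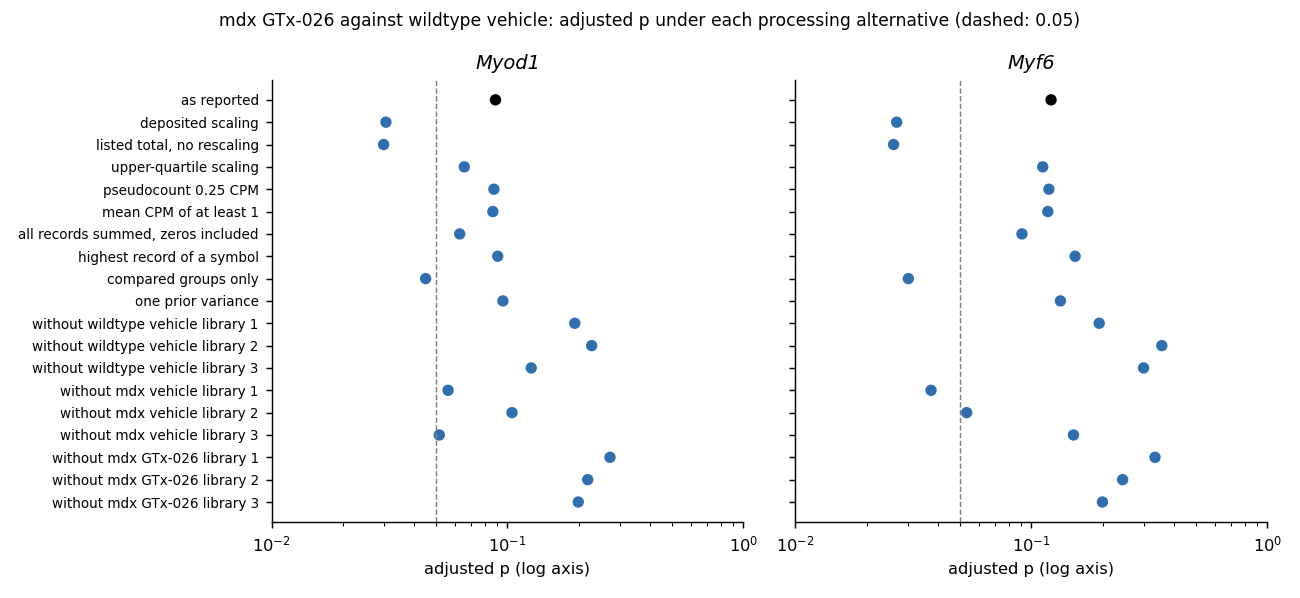
Limma adjusted p (log axis) of Myod1 and Myf6 for mdx GTx-026 against wildtype vehicle as reported (black) and under each of 18 alternatives (blue), with the threshold of 0.05 dashed. The points lie on both sides of the threshold, from 0.0299 to 0.272 for Myod1 and from 0.0260 to 0.357 for Myf6.

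Markers of other cell types were summed in each library. The 12 tested macrophage markers summed to 42.6 to 100.3 CPM in wildtype, 116 to 827 CPM in mdx vehicle and 288 to 425 CPM in mdx GTx-026 libraries, with the highest sum in the mdx vehicle library 1. All 12 were on the higher side in both mdx groups against wildtype, and 1 passed the threshold in mdx vehicle and 2 in mdx GTx-026 (limma), while Trem2 was listed at 0 in wildtype. The 9 markers of fibro-adipogenic progenitors summed to 525 to 774, 787 to 1579 and 1059 to 1682 CPM in the same order of groups, and 0 of them passed in mdx vehicle and 1 in mdx GTx-026 against wildtype (limma, 4 and 6 at unadjusted p under 0.05). The 9 slow fibre markers ran from 402 CPM in the mdx vehicle library 1 to 14958 CPM in a GTx-026 library, with overlapping groups and 0 called. The 2 tested lymphoid markers of 12 summed to 148 CPM in the mdx vehicle library 1, against 5.60 and 9.47 CPM in the others of its group and 4.00 to 50.9 CPM in the remaining 6 libraries, and 0 were called. That library also had the lowest muscle fibre sum. The part of these values in the members' levels was not tested.

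Other genes of the same pathways were taken from lists chosen with earlier results of these data known. Among 17 tested genes of 22 further satellite cell markers 0 passed in any comparison (limma), with unadjusted p under 0.05 in 3 genes for mdx vehicle against wildtype, 0 for GTx-026 against mdx vehicle and 3 for GTx-026 against wildtype, beside 12.7%, 3.17% and 12.5% of all genes, shares that apply equally to the lists that follow. Their median log2 fold change was 0.16, 0.09 and 0.21 in these comparisons, beside 0.01, 0.00 and 0.00 over all genes. Ncam1, a cell adhesion molecule also found on denervated fibres, had 13.6 CPM in mdx vehicle against 7.13 CPM in wildtype (log2 fold change 0.83, limma adjusted p = 0.196). Fzd7, the Wnt7a receptor of satellite cells, had 34.2 against 52.9 CPM (log2 fold change -0.62, limma adjusted p = 0.180). Fgfr4, a growth factor receptor of myoblasts, had 6.38 against 4.30 CPM (log2 fold change 0.47, limma adjusted p = 0.297). The groups did not overlap for Ncam1, Fzd7 or Fgfr4, with Fzd7 on the lower side. Over all genes 7.97% had mdx vehicle wholly above wildtype, and 1305 of 15372 had it wholly below.

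Of the E proteins, Id proteins and other partners of the family, 13 of 16 were tested and 0 passed in any comparison (limma), with unadjusted p under 0.05 in 2, 1 and 2 of them in the same order of comparisons. Hes6, a helper of myogenic differentiation, had 10.8 CPM in mdx vehicle and 7.29 CPM in wildtype, and Mdfic, the relative of Mdfi, 11.1 and 8.57 CPM. Hes1, a repressor that Notch signalling induces, had 11.2 CPM in mdx vehicle against 5.92 CPM in wildtype (log2 fold change 0.70, limma adjusted p = 0.375). The groups did not overlap for Hes6 or Hes1. For Hes1 the gap was small, with 6.37, 18.0 and 9.18 CPM in mdx vehicle libraries 1 to 3 and 6.16 CPM in the highest wildtype library. Id2, an inhibitor of bHLH factors, stood at 3.31 CPM in GTx-026 and 5.97 CPM in mdx vehicle libraries, the latter mean carried by 10.7 CPM in library 1. Bhlhe41, a bHLH repressor, was the gene under an unadjusted p of 0.05 in GTx-026 against mdx vehicle, at 49.9 against 40.4 CPM. All these values missed the adjusted threshold.

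Of 26 listed MEF2 factors and myogenic co-regulators 24 were tested. Among these 0 passed in mdx vehicle against wildtype and 0 in GTx-026 against mdx vehicle (limma, 5 and 1 at unadjusted p under 0.05). In GTx-026 against wildtype 1 rose. That gene was Klf5, a zinc finger factor that acts with Myod1 in differentiating myoblasts, at 4.70 against 1.81 CPM (log2 fold change 1.02, limma adjusted p = 0.0309). Smyd1, a muscle methyltransferase needed for sarcomere assembly, had 458 CPM in mdx vehicle against 686 CPM in wildtype, and Smarcd3, a chromatin remodelling subunit that Myod1 recruits, 126 against 181 CPM, both short of the threshold. Hdac9, a deacetylase that represses MEF2, had 2.11 CPM in GTx-026 against 3.18 CPM in mdx vehicle libraries (limma adjusted p = 0.9996). In the Notch pathway, which keeps satellite cells quiescent, 0 of 16 genes passed in any comparison (limma, 3, 0 and 2 at unadjusted p under 0.05). The ligand Dll4 had 6.96 CPM in mdx vehicle against 10.4 CPM in wildtype with no overlap, and the receptor Notch2 had 19.6 against 12.7 CPM with overlap, while the effector Hes1 is given above.

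Of 20 listed genes of myoblast adhesion and fusion 16 were tested, and Mymk and Mymx were among those with no listed signal. Of the 16 tested, 0 passed in any comparison (limma, 3, 0 and 2 at unadjusted p under 0.05). Boc, a co-receptor that binds cadherins in myoblasts, had 7.28 CPM in mdx vehicle against 3.59 CPM in wildtype, and Cdh2, N-cadherin, had 8.69 against 5.01 CPM. Of 5 listed relatives and partners of Megf10, 4 were tested and 1 rose, in GTx-026 against wildtype. It was Stab2, a scavenger receptor, at 18.8 against 9.00 CPM (log2 fold change 0.98, limma adjusted p = 0.0389), and its mdx vehicle level was 8.39 CPM. Against mdx vehicle its log2 fold change was 1.09 with a limma adjusted p of 0.336.

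Lists of the fibre's response, with 10 of 14 denervation-responsive and 11 of 12 regenerating-fibre genes tested, held more calls. Of 10 tested denervation-responsive genes, 2 rose in mdx vehicle against wildtype and 4 in GTx-026 against wildtype, with 0 in GTx-026 against mdx vehicle (limma, 1 gene at unadjusted p under 0.05). The called shares of all tested genes were 0.338%, 1.48% and 0.013% in these comparisons, and they apply to every list. Against wildtype 2 of the 10 genes lay on the lower side in each mdx group. In mdx vehicle 1 of these had an unadjusted limma p under 0.05, as did 7 genes on the higher side. Chrnb1, an acetylcholine receptor subunit, was at 75.5 CPM in mdx vehicle, 75.3 CPM in GTx-026 and 35.0 CPM in wildtype, with log2 fold changes of 1.09 and 1.08 (limma adjusted p = 0.0286 and 0.0148). Runx1, a transcription factor induced by denervation, was at 5.25, 6.26 and 2.09 CPM, with log2 fold changes of 1.03 and 1.25 (adjusted p = 0.0369 and 0.00820). Chrna1 (log2 fold change 1.31, adjusted p = 0.0205) and Musk (1.68, adjusted p = 0.0295) passed in GTx-026 against wildtype. Musk, the receptor kinase that organises the neuromuscular junction, was at 38.6 to 43.5 CPM in the GTx-026 libraries and 13.5, 34.0 and 14.7 CPM in the mdx vehicle libraries, which did not overlap (log2 fold change 1.08, limma adjusted p = 0.9996). Chrng, the fetal receptor subunit, was listed at 0 in wildtype and read at 0.551 to 5.97 CPM in the mdx libraries.

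Of 11 tested genes of regenerating fibres, 1 rose in mdx vehicle and 4 in GTx-026 against wildtype, and 0 in GTx-026 against mdx vehicle (limma, 0 at unadjusted p under 0.05). Against wildtype 3 of the 11 lay on the lower side in each mdx group, 0 of them at an unadjusted limma p under 0.05. Igf2, a growth factor that rises in differentiating myoblasts, was at 20.5 CPM in wildtype, 125 CPM in mdx vehicle and 139 CPM in GTx-026 libraries, with log2 fold changes of 2.52 and 2.60 against wildtype (limma adjusted p = 0.0241 and 0.00928). Ankrd1 (2.34, adjusted p = 0.0165), Myl4 (2.78, adjusted p = 0.0205) and Sln (3.60, adjusted p = 0.0475) passed in GTx-026 against wildtype. Tnnt2, the cardiac troponin T of regenerating fibres, was listed at 0 in wildtype and read at 6.46, 8.73 and 34.0 CPM in the mdx vehicle and 27.1, 29.9 and 22.0 CPM in the GTx-026 libraries. The mdx vehicle library 3 was the highest of its group for Tnnt2, Chrng and 7 of the 8 members, all but Myf6. The share of all genes highest in that library was not taken, so the count cannot be read as a trait of the members. Medians of the endothelial (0.07), smooth muscle (0.55) and Schwann cell (0.17) markers against the wildtype mean were also highest there. Those of the denervation-responsive, cell cycle, Megf10-related, muscle fibre, slow fibre and lymphoid lists were highest in another library of the group. Of 20 listed cell cycle genes 14 were tested, and Mki67, Top2a, Ccnb1, Ccnb2, Cdk1 and Bub1 had no listed signal. Of the 14 tested, 1 rose, Rrm2 in GTx-026 against wildtype, at 4.71 against 1.17 CPM (log2 fold change 1.41, limma adjusted p = 0.0295).

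Most of these calls were lost under some alternatives. In GTx-026 against wildtype, Igf2 passed in all 18 alternatives, Runx1 in 17, the exception being without wildtype library 3, and the other 9 called genes each lost the call when wildtype library 2, wildtype library 3, GTx-026 library 1 or GTx-026 library 2 was left out. Stab2 also lost it with the deposited scaling (limma adjusted p = 0.0613) and the listed totals (0.0648). Sln passed in 7 of 18 alternatives and also lost it with a pseudocount of 0.25 CPM (0.0546), with the compared groups alone (0.0515) and with 1 prior variance (0.0513). In mdx vehicle against wildtype, Chrnb1 passed in 10, Igf2 in 13 and Runx1 in 6 of 18 alternatives, and all 3 lost the call when wildtype library 2, wildtype library 3 or mdx vehicle library 3 was left out. All 3 also lost it with the compared groups alone (limma adjusted p = 0.107 for Chrnb1, 0.0548 for Igf2 and 0.138 for Runx1). With the highest record of the symbol Chrnb1 (0.0666) and Runx1 (0.0512) lost it, as did Runx1 with the deposited scaling (0.0794) and the listed totals (0.0803).

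**Figure D5:**
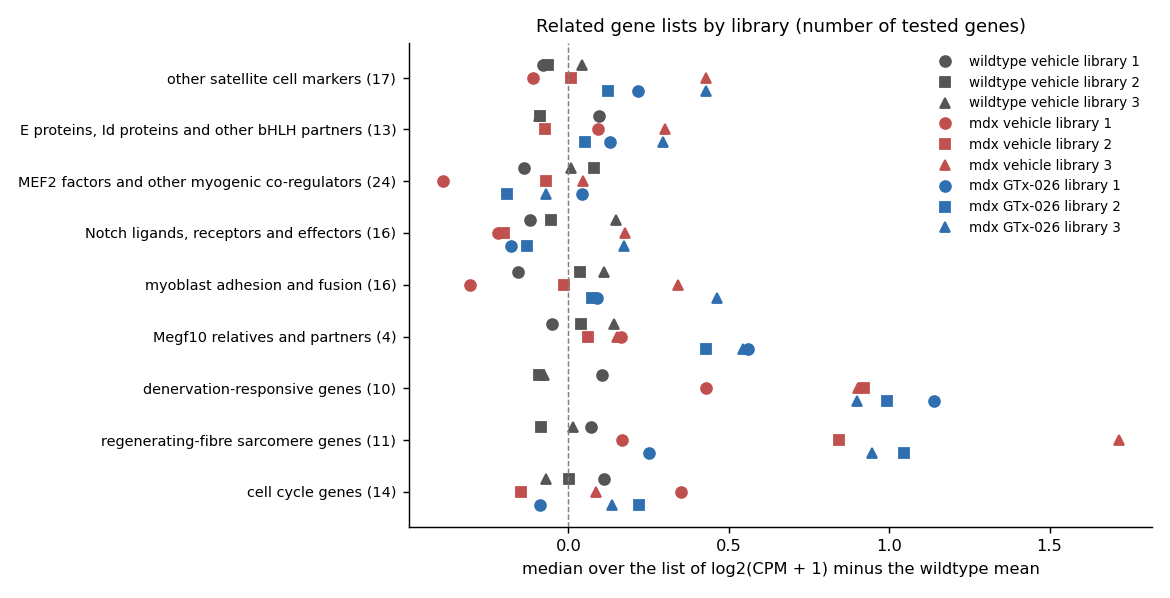
Median over the tested genes of each list of log2(CPM + 1) minus the wildtype mean (horizontal axis), for each library. For regenerating-fibre genes the mdx vehicle libraries range from 0.17 in library 1 to 1.72 in library 3, and the satellite cell marker list ranges from -0.11 to 0.43 over the mdx libraries.

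Across the 9 libraries the members did not follow a single pattern. Pearson's r of log2(CPM + 1) was highest between Myf6 and Myod1 (0.75) and between Myog and Megf10 (0.71), and it was -0.08 between Myod1 and Cdh15. These values describe 9 libraries that share their groups and carry no test. Among 10343 genes of at least 5 CPM on average, the 3 most similar to Myod1 were Plcl1 (0.97), Map1b (0.97) and Slc4a2 (0.95). Those most similar to Myf6 were Mrps16 (0.98), Nudt18 (0.97) and Fkbp5 (0.97), and those most similar to Myog were Nrbp2 (0.95), Yipf1 (0.93) and Tubb6 (0.92). For Pax7 they were Sccpdh (0.97), Trim3 (0.96) and Evc2 (0.94), and for Cdh15 Surf4 (0.96), Psmd3 (0.96) and Fam173b (0.96). For Myf5 they were Gm15523 (0.96), Polr1a (0.96) and Atp11a (0.95), and for Megf10 Urb1 (0.95), Uck1 (0.91) and Klc1 (0.91).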

How the data were processed

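The deposited table lists 46442 sequence records for 9 libraries. Its deposited signal is a scaled read number per record: below 10000, all values lay within 0.1 read of whole multiples of 1 step per library. Reads estimated from that step were not accepted as counts, so no count model was fitted. The authors' ratio of group means and the authors' p-value for each pair of groups are given beside it, per the file headers. Tools named per the submitters' processing notes, with no role or order stated, were HTSeq 0.6.1p1, DESeq2 1.6.3, Bowtie2 2.2.4, TopHat2 2.0.13 and SAMtools 0.1.19, with build GRCm38.p3. The annotation and any use of strand are not given in the sources used here. Column names give a group and a number, and the number pairs nothing.

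Records above 0 in all 9 libraries were summed per symbol, and 4 records without a symbol (0.000646% of the signal) were left out. Pax7 had 3 records, Myf5 and Myf6 had 2 each and Mdfi had 5, so a read listed under several records would enter a sum more than once. A trimmed mean of log ratios gave each library's rescaling factor (30% of ratios and 5% of levels trimmed, range 0.874 to 1.30). Tests used limma 3.58.1 in R 4.3.3 on log2(CPM + 1), all 9 libraries in 1 model with a trended prior variance, two-sided, adjusted by Benjamini-Hochberg over 15372 genes with a threshold of 0.05; residual degrees of freedom were 6 and prior ones 3.54. Only the limma step was tested on simulated data, with changes larger than those of any tested member, so recovery of changes of their size was not tested. Promoters and motifs were read with Python 3.11.15 from RefSeq entries, which held none for Myod1 or Myf6.

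The members and lists were chosen with earlier results of these data known. Named genes were the 8 members, up to 3 genes per list with the smallest unadjusted p in each of the first 2 comparisons, any called list gene and the 3 nearest genes by correlation; genes listed at 0 in wildtype were named after their values were seen. Alternatives were other scalings, a pseudocount of 0.25 CPM, a minimum mean of 1 CPM, zeros included, the highest record, compared groups only, 1 prior variance and each library left out.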

Additional observations from a re-analysis of the deposited data

How the results depend on the processing

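In mdx GTx-026 against wildtype vehicle the number of members called was 0 as reported, 2 with the deposited scaling, 2 with the listed totals, 2 with the compared groups alone and 0 to 1 when single libraries were left out. With zeros included it was 1, Mdfi, both there and in mdx vehicle against wildtype. That setting treats a listed 0 as a true 0, so neither call measures a difference of Mdfi from wildtype. In GTx-026 against mdx vehicle the number of members called was 0 under every alternative run. Genes called in all numbered 52, 2 and 227 in the 3 comparisons as reported, 5, 1 and 421 with the compared groups alone, 4 in GTx-026 against mdx vehicle under the deposited scaling or the listed totals, 332, 96 and 509 with zeros included, and 5 to 93, 0 to 2 and 45 to 368 when single libraries were left out. The deposited scaling and the listed totals shifted the median gene by 0.15 and 0.16 in mdx vehicle against wildtype and by 0.09 and 0.10 in GTx-026 against wildtype. Relative to that shift Myod1 stood at 1.07 and Myf6 at 0.98 under both. Small estimates changed sign. In mdx vehicle against wildtype, Myf5 was 0.0851 and 0.0923 under these scalings and -0.14 to 0.11 with single libraries left out, and Megf10 ran from -0.11 to 0.33 with them left out. In GTx-026 against mdx vehicle, Cdh15 was -0.0520, -0.0582 and -0.0319 under the deposited, listed-total and upper-quartile scalings. Myf5 was 0.0803 there with the highest record of its symbol. With single libraries left out of that comparison, Cdh15 ran from -0.23 to 0.15, Myf5 from -0.20 to 0.0419, Megf10 from -0.18 to 0.14, Myog from -0.25 to 0.74 and Pax7 from -0.17 to 0.30. Megf10 in GTx-026 against wildtype ran from -0.14 to 0.30 in the same way. The cause of these changes was not tested. No paired analysis was possible because the sample titles are numbered in 1 series and no label pairs equal column numbers of different groups.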
